A study of Mus musculus with 15 samples.

Results

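Cadherins and protocadherins are the cell surface adhesion proteins examined here, in the dentate gyrus of mice with and without the serotonin receptor gene Htr4 in granule and mossy cells. The members were all rows of the count files whose symbol is Cdh followed by a number or begins with Pcdh, 92 of 32657 genes, of which 23 are cadherins and 69 protocadherins. The rule itself uses symbols and no measured values, although the family was taken up with earlier results of these data known. WT mice carried Drd3-Cre KI198 and Rosa26-fsTRAP, so that Cre switched on an EGFP-tagged ribosomal protein L10a in granule cells of the granule cell layer and in mossy cells of the hilus. cKO mice carried the same alleles and Htr4-Floxed, and all mice were 8 to 12 weeks old on a C57BL/6J background. Tagged ribosomes were pulled down from ventral dentate gyrus (vDG) by translating ribosome affinity purification (TRAP), which gave the IP libraries, and total RNA of vDG or of dorsal dentate gyrus (dDG) gave the input libraries. Each of the 3 kinds (IP from vDG, and inputs from vDG and from dDG) had 3 WT and 2 cKO libraries, which makes 15 libraries in 6 groups. By the sample records each IP library was a pool of 3 mice and each input library a pool of 2, whereas the study's methods give 1 male and 1 female per pool. The input records also name whole cortex as the source although their region field gives dentate gyrus. The driver limits the IP as a model, since by the study's description it is also active in some CA neurons, so tagged CA cells cannot be told apart from granule and mossy cells in the IP. Nothing beyond the pools was replicated, so p-values measure the spread between these pools. Statements that groups do or do not overlap describe the same values as the tests and add no support. The share of all genes without overlap was not computed.

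Classical cadherins join cells by calcium-dependent binding between like molecules and are anchored to actin through catenins, and type II members bind selectively within small specificity groups, one of which is Cdh6, Cdh9 and Cdh10. Protocadherins form a larger family. The clustered Pcdha, Pcdhb and Pcdhg genes lie side by side and are chosen in different combinations by single neurons. This choice lets a neuron tell its own branches from others. The nonclustered delta protocadherins are expressed in particular circuits and guide axon sorting and synapse formation. In the hippocampus these families are known for building the mossy fibre synapse that granule cell axons form in CA3 and for shaping granule cell dendrites.

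By role, the members comprised 5 type I and 13 type II classical cadherins, 5 other cadherins, 4 delta-1, 5 delta-2 and 3 other nonclustered protocadherins, and 14 Pcdha, 21 Pcdhb and 22 Pcdhg genes. A count above 0 in any library was found for 89 of the 92, and Pcdha4, Pcdha6 and Pcdha7 were at 0 in all 15. There were 10 members, written here with their highest count in any library, that failed the expression filter in every comparison. These were Cdh1 (4), Cdh16 (1), Cdh17 (6), Cdh26 (4), Cdh3 (4), Pcdh12 (6), Pcdhb1 (9) and the 3 Pcdha genes at 0. Cdh1 and Cdh3 are the epithelial and placental cadherins and Cdh16 and Cdh17 those of kidney and intestine. Of the other 82, Pcdha1 failed in 3 comparisons with at most 16 counts, and Pcdh18 failed between the vDG IP groups with at most 9. Reads that fit more than one clustered gene, as in the constant exons that Pcdha or Pcdhg transcripts share, were set aside by the counting. A clustered gene is therefore measured on its own exon only, and near-identical Pcdhb paralogs stay uncertain. Pcdha4, Pcdha6 and Pcdha7 share 5274, 3082 and 3198 exonic bases with other genes in the annotation, beside 2860 or 2864 for the other placed Pcdha genes. Their counts of 0 thus do not show that they are silent, and the part of reads set aside was not tested. In the annotation 59 of the 91 members found lie on chromosome 18, which holds the 3 clusters, and 5 lie on chromosome 15, namely Cdh6, Cdh9, Cdh10, Cdh12 and Cdh18.

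Counts on genes ranged from 19039295 to 30451430 per library with a median of 24915901, and all levels below are counts per 1000000 (CPM), scaled by trimmed mean of M values (TMM). Lct, a dorsal granule cell gene, and Trhr, a ventral one, followed the region labels, and the 5 astrocyte genes summed to 55.7 to 103 CPM in the WT IP against 405 to 505 in the WT vDG input. Htr4 itself was counted at 13.6, 16.0 and 15.9 CPM in the WT vDG IP and at 29.8 and 26.7 in the cKO vDG IP, higher in the libraries labelled cKO (log2 fold change 0.93 ± 0.17 (SE), FDR = 0.0705), and it was higher in the cKO vDG input (log2 fold change 0.86 ± 0.16 (SE), FDR = 0.00644). In the dDG input the difference of 0.75 ± 0.14 (SE) did not pass (FDR = 0.0978). Only part of the gene is floxed and the count covers the whole gene, so it cannot check the deletion. Directions between genotypes below are therefore between libraries as labelled. The study reports from its mapped reads that the floxed exon was missing in cKO tissue, and that total Htr4 was higher in the cKO IP. Summed over all 92 members, the WT vDG IP libraries held 1838, 2064 and 2551 CPM and the WT vDG inputs 1578, 2046 and 1682, so replicate 3 of the IP and replicate 2 of the input stood highest in their groups. The cKO vDG IP held 1741 and 1701 CPM and the cKO vDG input 1325 and 1258, the lowest pair of the 6 groups.

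Cdh10 and Cdh6 were the members called between genotypes in the purified fraction by the main test. Cdh10 lies on the plus strand at chr15:18818947-19014236 and Cdh6 on the minus strand at chr15:13028701-13173675 (mm10, GENCODE M21), and both encode type II cadherins of the same specificity group. The receptor that Htr4 encodes couples to Gs and raises cyclic AMP, and the best known promoter element of that pathway is the CRE. The promoters of these 2 genes, and of Pcdh10 and Pcdh9, picked because they hold a CRE core and were lower in the cKO vDG input, are shown, each from 250 bases before to 50 bases after the RefSeq start (GRCm38.p6), 5′ to 3′ on the gene's own strand. Capitals mark the CRE core TGACG or its reverse complement CGTCA, which were searched on both strands and which the full CRE, TGACGTCA, contains in overlap.
Cdh10 promoter, chr15:18820079-18820378, plus strand: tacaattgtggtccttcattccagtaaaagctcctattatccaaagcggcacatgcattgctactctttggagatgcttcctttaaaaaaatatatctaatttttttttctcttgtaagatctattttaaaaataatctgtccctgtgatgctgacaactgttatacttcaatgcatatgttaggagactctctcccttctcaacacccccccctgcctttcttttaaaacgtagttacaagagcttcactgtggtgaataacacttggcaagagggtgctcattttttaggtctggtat
Cdh6 promoter, chr15:13173626-13173925, minus strand: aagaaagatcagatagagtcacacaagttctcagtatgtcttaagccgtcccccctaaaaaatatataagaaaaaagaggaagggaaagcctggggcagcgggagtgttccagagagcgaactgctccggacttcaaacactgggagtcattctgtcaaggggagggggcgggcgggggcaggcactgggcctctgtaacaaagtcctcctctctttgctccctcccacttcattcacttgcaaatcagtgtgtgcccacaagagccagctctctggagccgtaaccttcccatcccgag
Pcdh10 promoter, chr3:45378148-45378447, plus strand: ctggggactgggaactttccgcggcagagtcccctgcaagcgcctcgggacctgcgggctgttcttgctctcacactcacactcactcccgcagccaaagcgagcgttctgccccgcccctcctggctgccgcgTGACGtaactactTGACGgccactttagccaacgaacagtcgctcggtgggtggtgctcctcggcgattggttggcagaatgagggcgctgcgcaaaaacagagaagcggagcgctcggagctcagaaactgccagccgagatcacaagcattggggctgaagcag
Pcdh9 promoter, chr14:93890630-93890929, minus strand: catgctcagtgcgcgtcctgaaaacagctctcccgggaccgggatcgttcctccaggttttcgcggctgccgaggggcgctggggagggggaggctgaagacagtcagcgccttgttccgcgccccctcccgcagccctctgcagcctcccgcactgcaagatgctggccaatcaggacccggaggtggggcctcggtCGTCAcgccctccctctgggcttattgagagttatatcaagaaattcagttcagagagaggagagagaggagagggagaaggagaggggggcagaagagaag
No CRE core stood in the Cdh10 or Cdh6 window, Pcdh10 held 2 cores and Pcdh9 held 1, and neither held a full CRE. The RefSeq start of Cdh10 lies 1382 bases inside the gene as GENCODE gives it, so the window does not cover the GENCODE start, and Pcdh9 has another, overlapping RefSeq window that holds the same core. Among 32851 promoters of 27025 genes of the same length, 20.8% held a core and 1.79% a full CRE. RefSeq gave 25 promoters for 22 of the 32 placed members that do not share the clusters' chromosome, and a core was found for 3 of these 22 genes, Cdh8, Pcdh9 and Pcdh10, which is no larger a share than the background, and a full CRE for 0. Of the members lower in the cKO vDG input, Cdh20 and Pcdh19, like Cdh10, had a window without a core. These matches describe letters in a window and say nothing of binding.

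Cdh10 was measured at 19.1, 23.5 and 30.7 CPM in the 3 WT vDG IP libraries and at 10.6 and 11.1 CPM in the 2 cKO ones. Both cKO libraries lay below every WT library, and replicate 3 was the highest of the WT group. The gene was lower in the cKO IP (log2 fold change -1.13 ± 0.21 (SE), FDR = 0.0705; edgeR quasi-likelihood test with Benjamini-Hochberg adjustment, called at an FDR under 0.1 in this comparison). That call was lost without WT IP replicate 2 (FDR = 0.156), where 0% of all genes were called, and without either cKO IP library. The log2 fold change was -1.15 without WT IP replicate 2, and -1.10 and -1.16 without cKO IP replicate 1 or 2. The study reports by qRT-PCR on amplified TRAP IP cDNA that Cdh10 was depleted in cKO, to a degree similar to its RNA-seq.

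In the vDG input, Cdh10 stood at 19, 32.8 and 27 CPM in WT and 19 and 11.9 CPM in cKO. The higher cKO library met the lowest WT library, so the groups overlapped, although the fit called the gene lower in cKO (log2 fold change -0.78 ± 0.21 (SE), FDR = 0.0439), a call kept under 4 of 13 alternative settings. The fold change was -1.15 without cKO vDG input replicate 1 (FDR = 0.0893) and -0.48 without replicate 2 (FDR = 0.474), so its size rests on single cKO libraries. In the dDG input the values were 7.9, 15.1 and 10.5 CPM in WT and 9.93 and 11.9 CPM in cKO, both cKO libraries lying inside the WT range (log2 fold change -0.034 ± 0.23 (SE), FDR = 0.977). Ordered by mean, Cdh10 was at 26.3 ± 6.95 CPM (SD, n = 3) in the WT vDG input, 24.4 ± 5.86 CPM (SD, n = 3) in the WT vDG IP and 15.5 ± 5.06 CPM (SD, n = 2) in the cKO vDG input, followed by 11.2 ± 3.65 CPM (SD, n = 3) in the WT dDG input, 10.9 ± 1.38 CPM (SD, n = 2) in the cKO dDG input and 10.9 ± 0.384 CPM (SD, n = 2) in the cKO vDG IP. The first pair did not pass the IP test (log2 fold change -0.17 ± 0.20 (SE), FDR = 0.579), and the ranges of the last 3 groups overlapped. Within cKO, IP against vDG input did not pass either (log2 fold change -0.53 ± 0.23 (SE), FDR = 0.0994). Its FDR was 0.0181 with a replicate block, 0.0347 with library-size scaling and 0.0465 without a count filter, and no alternative took it past the fold limit for depletion. That fold change was -0.15 without cKO vDG input replicate 1 (FDR = 0.778) and -0.83 without replicate 2 (FDR = 0.0242).

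Cdh6 was rare in every library. It had 14, 24 and 15 counts in the WT vDG IP and 0 and 0 in the cKO vDG IP, with 3 WT libraries above 0 and both cKO libraries at 0. The floor was set at 3 counts per library, 0.126 to 0.141 CPM. By group means Cdh6 was at least 5.29-fold lower in the cKO IP than in the WT IP (FDR = 0.0971). The lowest WT IP library stood at 3.985 times the highest floor. The fitted fold change of a gene at 0 depends on the prior count and is not used here. The call was lost with a replicate block (FDR = 0.148), without WT IP replicate 2 (FDR = 0.230) or replicate 3 (FDR = 0.107) and without cKO IP replicate 1 (FDR = 0.908) or replicate 2 (FDR = 0.356), and DESeq2 gave the gene no adjusted p.

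The vDG inputs held 38, 80 and 69 counts of Cdh6 in WT and 40 and 38 in cKO, so the cKO libraries, at 0 in the IP, were near the lowest WT library in the input (log2 fold change -0.65 ± 0.36 (SE), FDR = 0.42). In the dDG inputs the counts were 39, 29 and 22 in WT and 50 and 24 in cKO, again overlapping (log2 fold change 0.27 ± 0.47 (SE), FDR = 0.879). Within cKO, Cdh6 was by group means at least 11-fold lower in the IP than in the vDG input (FDR = 0.000834). The lowest cKO vDG input library stood at 9.94 times the highest floor. Within WT, Cdh6 was lower in the IP as well (log2 fold change -1.75 ± 0.40 (SE), FDR = 0.00569). The difference between these contrasts did not pass edgeR's interaction test (FDR = 1.0 over 16093 genes), and it passed without a count filter (FDR = 0.0431). Cdh9, the third member of the specificity group and far more abundant, did not pass the test in the IP (log2 fold change -0.45 ± 0.16 (SE), FDR = 0.33).

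Of the markers of other cells, the interneuron gene Gad2, an enzyme of GABA synthesis, was called lower in the cKO IP (log2 fold change -0.91 ± 0.15 (SE), FDR = 0.0618). The 7 interneuron genes summed to 167 to 194 CPM in the WT IP and 114 to 130.0 in the cKO IP, with the estimates of all 5 tested below 0 in cKO. The 5 mossy genes, of cells the driver tags, summed to 65.5 to 92 and 62.9 to 74 CPM, with 4 of 4 tested below 0 and a median of -0.33, and 0 were called. The 6 CA pyramidal genes summed to 306 to 453 and 248 to 299 CPM, with 5 of 6 below 0, and the 5 astrocyte genes to 55.7 to 103 and 46.3 to 59.8 CPM, which overlap, with 4 of 5 below 0, and 0 of either list were called. The 7 granule genes summed to 1457 to 1664 and 1639.9 to 1744 CPM, with 3 of 7 below 0, and 0 were called. None of the markers in these 5 lists was at 0 throughout the cKO IP, and their part in the Cdh10 and Cdh6 results was not tested. In bulk samples such as these, fewer cells of a type and less RNA per cell cannot be told apart.

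**Figure D1:**
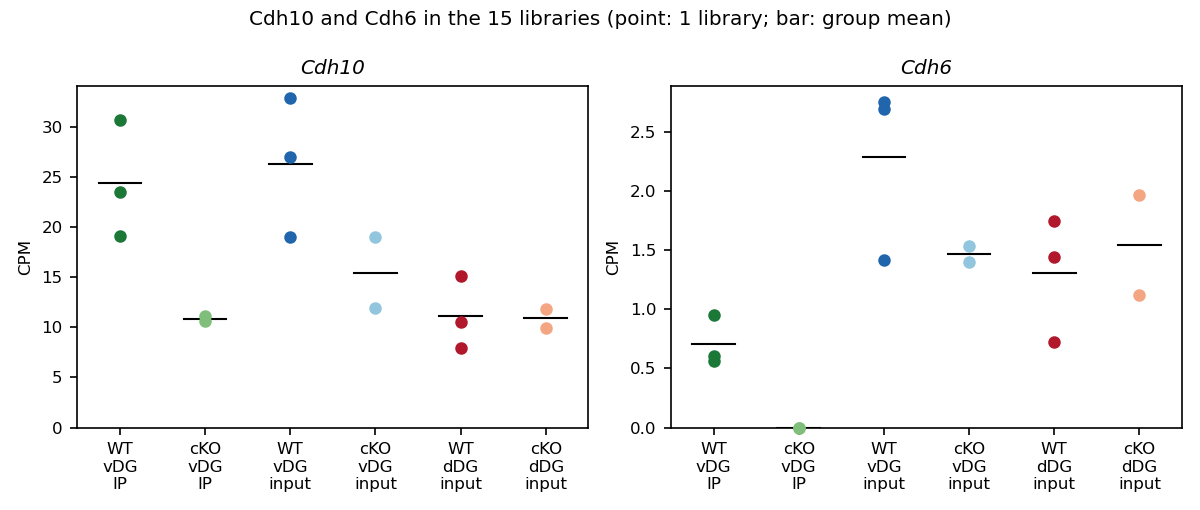
Levels of Cdh10 (left) and Cdh6 (right) in CPM on linear axes from 0, in the 6 groups on the x axis. Each point is 1 library and each bar a group mean. Cdh10 in the cKO vDG IP lies at 10.6 and 11.1 CPM, below all 3 WT IP libraries, and Cdh6 is at 0 in both cKO IP libraries but not in either cKO input group.

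The members at the highest level per kilobase of their own exons in the WT vDG IP were mostly not clustered genes. Pcdh20, a nonclustered protocadherin, led with 41.9 ± 1.6 CPM per kb (SD, n = 3), and Cdh9, the type II cadherin of mossy fibre synapses, followed with 33.8 ± 7.25. Pcdh1, a delta-1 protocadherin, stood at 31.8 ± 11.2 and Pcdh19, the delta-2 protocadherin of an X-linked epilepsy that associates with N-cadherin, at 28.2 ± 3.1. The ranges of these neighbours met, so the order within the leading 4 is not firm.

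Pcdh9, another delta-1 gene, stood at 19.96 ± 2.84 CPM per kb in the WT vDG IP. Pcdhgc5, a C-type gamma protocadherin, was the highest clustered gene at 17.4 ± 2.64. Cdh2, the N-cadherin found at most excitatory synapses, was at 13.3 ± 3.5. Below these came Cdh11 at 11.2 ± 2.75, Pcdh17 at 9.36 ± 1.96 and Pcdhac2, a C-type alpha protocadherin needed for the spread of serotonergic axons, at 8.95 ± 2.89.

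In the other 5 groups the leading genes kept to a similar scale. Pcdh20 had group means of 32.2 CPM per kb in the WT vDG input, 29.7 in the WT dDG input, 33.2 in the cKO vDG IP, 28.4 in the cKO vDG input and 26.4 in the cKO dDG input. Cdh9 had, in the same order, means of 27.6, 22.8, 24.2, 20.8 and 21.4 CPM per kb. Pcdh1 had 22, 18.9, 23.6, 14.3 and 15.8. Each of these 3 genes had its highest mean in the WT vDG IP.

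Pcdh19 had means of 17.9, 12.3, 22, 12.3 and 9.94 CPM per kb in that order of groups. Pcdh9 had 20.1, 17.6, 17.2, 14.3 and 17, and Pcdhgc5 had 11.9, 13.1, 15.8, 8.38 and 11.2. For Pcdh19 and Pcdhgc5 both IP means lay above all 4 input means. Cdh2 had 11.3, 8.15, 10.6, 7.93 and 7.26, and Cdh11 had 9.28, 5.8, 7.77, 6.9 and 6.74.

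Pcdh17 had its highest means in both dDG groups. Its means were 8.85 and 13.7 CPM per kb in the WT vDG and dDG inputs, 8.97 in the cKO vDG IP and 7.38 and 12.7 in the cKO vDG and dDG inputs. Pcdhac2 had 6.81, 4.92, 6.36, 4.91 and 4.68 CPM per kb in the order used above.

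**Figure D2:**
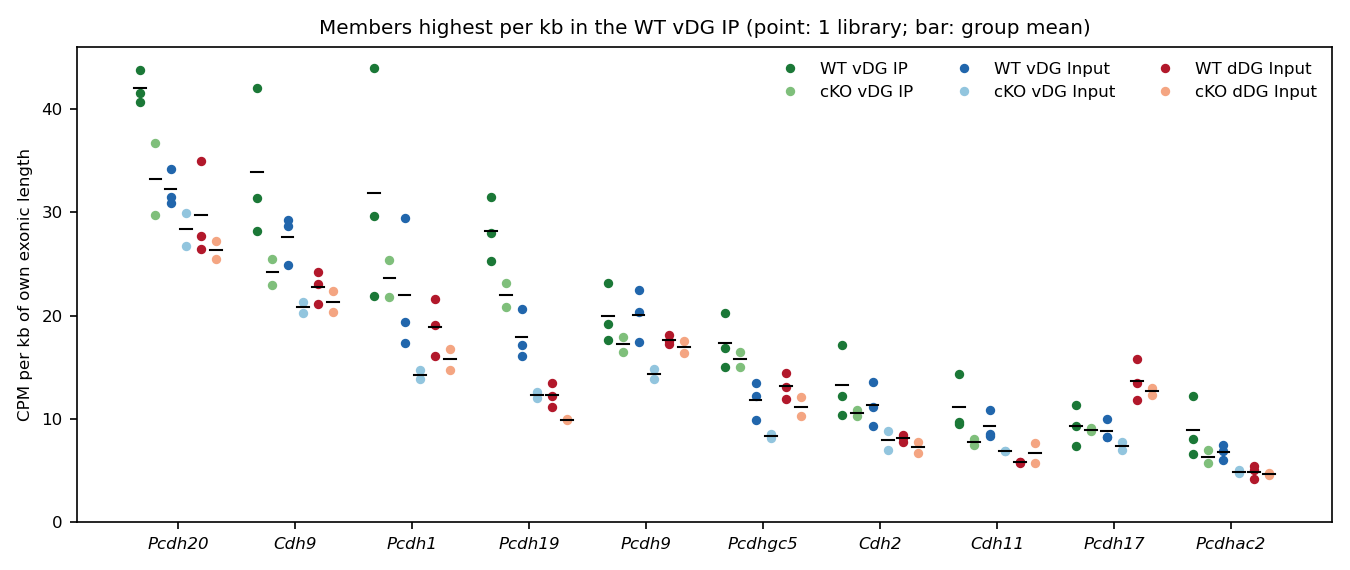
CPM per kilobase of own exonic length (y axis, linear from 0) for the 10 members highest in the WT vDG IP (x axis), with 1 point per library and a bar at each group mean, coloured by the 6 groups. Pcdh20, Cdh9, Pcdh1 and Pcdh19 lead, and Pcdh17 is the gene whose dDG groups stand highest.

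The first comparison asked which members are carried by ribosomes of the tagged neurons, and set the vDG IP against the vDG input within each genotype. In WT, 7 of 82 tested members were enriched, which required a level at least 25% above the input and an FDR under 0.05, and 9 were depleted, which required a fold under 0.5. Over all genes tested 7.72% were enriched and 11.4% depleted, so the members' counts were near the background. In cKO, 14 of 81 were enriched against 11.4% of all genes and 7 depleted against 10.7%. The members' median log2 fold change was 0.18 in WT and 0.35 in cKO, beside medians of 0.0029 and -0.028 over all genes. Scaling by library size alone moved the median of all genes to -0.13 in WT and -0.20 in cKO, and the split of called members to 3 enriched and 9 depleted in WT and 9 and 7 in cKO. Without replicate 3 of the WT vDG input 10 members were called in WT, and in cKO 12 and 10 were called without replicate 1 or 2 of the vDG input. Calls kept under every alternative, each library left out included, were 9 of 16 in WT (Cdh20, Cdh6, Pcdh11x, Pcdh15, Pcdh18, Pcdh19, Pcdh8, Pcdhgb2 and Pcdhgc3) and 8 of 21 in cKO (Cdh20, Cdh6, Pcdh1, Pcdh15, Pcdh19, Pcdhga3, Pcdhgb5 and Pcdhgc5). The others were lost under at least 1 alternative.

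No type I cadherin was called in WT, where 2 of the 3 tested lay above 0 with a median of 0.16. In cKO, Cdh2 was enriched, with 88 and 83.2 CPM in the IP and 71.7 and 56.3 in the input (log2 fold change 0.39 ± 0.13 (SE), FDR = 0.0388), while its WT values of 83.8, 98.5 and 138 and 75.2, 109 and 89.6 CPM overlapped between IP and input (log2 fold change 0.16 ± 0.17 (SE), FDR = 0.537). Cdh4, or R-cadherin, missed the fold limit for depletion in WT (log2 fold change -0.75 ± 0.24 (SE), FDR = 0.0395).

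Among the 13 type II cadherins 0 were enriched in either genotype, and 4 were depleted in WT and 3 in cKO. Cdh20 was the most strongly depleted of the 4 by FDR, at 0.921, 1.03 and 1.49 CPM in the WT IP against 6.33, 9.42 and 5.89 in the input (log2 fold change -2.71 ± 0.28 (SE), FDR = 7.59e-06) and at 0.375 and 0.715 against 3.42 and 3.64 CPM in cKO (log2 fold change -2.7 ± 0.47 (SE), FDR = 0.00132). In both genotypes every IP library lay far below every input library. Cdh6 was depleted in both, as given above. Cdh19, a cadherin of glia, was at 0.401, 0.515 and 0.685 CPM in the WT IP and 3.43, 1.17 and 1.44 in the input (log2 fold change -1.97 ± 0.49 (SE), FDR = 0.00879), and at 0.188 and 0.0841 against 0.998 and 1.21 CPM in cKO (log2 fold change -3.03 ± 0.78 (SE), FDR = 0.0124). Replicate 1 of the WT input stood apart from the other two for Cdh19, and the groups did not overlap. Cdh7 was depleted in WT (log2 fold change -1.1 ± 0.32 (SE), FDR = 0.021), and in cKO its estimate of -1.09 ± 0.46 (SE) did not pass (FDR = 0.0992). The abundant type II genes Cdh8, Cdh9 and Cdh11 had log2 fold changes of 0.20, 0.23 and 0.20 in WT and passed in neither genotype.

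Of the other cadherins, Cdh13 (T-cadherin, which is held to the membrane by a GPI anchor) and Cdh23, a tip link protein of hair cells, were tested. Neither was called, with log2 fold changes of 0.10 and -0.27 in WT and 0.32 and -0.98 in cKO.

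The delta-1 protocadherins split. Pcdh11x, which is X-linked, was depleted in WT at 2.92, 4.68 and 3.02 CPM against 8.53, 10.1 and 8.46 (log2 fold change -1.41 ± 0.22 (SE), FDR = 0.000429) and in cKO at 4.5 and 2.35 against 8.29 and 7.33 CPM (log2 fold change -1.22 ± 0.32 (SE), FDR = 0.0136), with replicate 1 of the cKO IP nearest to the input. Pcdh1 was enriched in cKO at 223 and 192 CPM against 129.6 and 122 (log2 fold change 0.70 ± 0.11 (SE), FDR = 0.000598), and the input libraries lay close together there. Its WT difference did not pass the test (log2 fold change 0.46 ± 0.22 (SE), FDR = 0.146).

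Pcdh19 was the most abundant enriched delta-2 gene. It stood at 264, 293 and 329 CPM in the WT IP against 179, 215 and 168 in the input (log2 fold change 0.59 ± 0.13 (SE), FDR = 0.00387) and at 242 and 218 against 132 and 126 CPM in cKO (log2 fold change 0.81 ± 0.10 (SE), FDR = 0.000127), with no overlap in either genotype. Pcdh8 (arcadlin), a protocadherin that neuronal activity induces, was enriched as well, at 28.1, 33.7 and 32.8 CPM against 14.5, 20.6 and 18.3 in WT (log2 fold change 0.76 ± 0.16 (SE), FDR = 0.00251) and 25 and 23 against 15.4 and 12.3 in cKO (log2 fold change 0.77 ± 0.17 (SE), FDR = 0.00528). Again all IP libraries lay above all inputs. Pcdh18 went the other way, at 0.16, 0.357 and 0.161 CPM against 1.45, 1.44 and 2.18 in WT (log2 fold change -2.93 ± 0.49 (SE), FDR = 0.000589), where the IP values rest on 4, 9 and 4 counts. In cKO, Pcdh18 stood at 0.0469 and 0.168 against 0.998 and 0.994 CPM (log2 fold change -3.15 ± 0.83 (SE), FDR = 0.0147). Pcdh10 missed the fold limit for depletion in WT (log2 fold change -0.64 ± 0.15 (SE), FDR = 0.00682) and in cKO (log2 fold change -0.57 ± 0.15 (SE), FDR = 0.0137), and Pcdh17 was not called in either, with 0.016 and 0.26.

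Pcdh15, which forms hair cell tip links with Cdh23 and is known as a marker of oligodendrocyte precursors, was depleted in WT at 1.64, 1.74 and 4.31 CPM against 10.1, 9.52 and 7.29 (log2 fold change -1.88 ± 0.31 (SE), FDR = 0.000577) and in cKO at 0.469 and 1.51 against 6.76 and 7.58 CPM (log2 fold change -2.86 ± 0.43 (SE), FDR = 0.000496). Replicate 3 of the WT IP was the highest IP library and still lay below every input. Pcdh20, the leading gene by level, had log2 fold changes of 0.32 ± 0.11 (SE) in WT (FDR = 0.0511) and 0.20 ± 0.12 (SE) in cKO (FDR = 0.226) and was not called.

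In the Pcdha cluster 0 of 11 tested genes were called in WT and 0 of 10 in cKO. In the Pcdhb cluster 13 of 20 estimates lay above 0 in WT (median 0.14), with only Pcdhb9 called (log2 fold change 0.58 ± 0.20 (SE), FDR = 0.049), and all 20 lay above 0 in cKO (median 0.57), with 3 called, of which Pcdhb16 and Pcdhb17 were called in cKO and not in WT. Scaling by library size alone left 17 of those 20 above 0. Pcdhb9 stood at 9.45, 6.94 and 9.35 CPM in the WT IP and 6.03, 4.78 and 5.69 in the input, and at 7.08 and 6.73 and 2.96 and 3.68 CPM in cKO, with no overlap in either. The 3 cKO calls had log2 fold changes of 0.67 to 1.03 with FDR of 0.00741 to 0.0317.

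The Pcdhg cluster, the largest class, gave 6 of the 16 calls in WT and 8 of the 21 in cKO. In WT, 18 of 22 estimates lay above 0 (median 0.40), 4 genes were enriched and 2 depleted, and in cKO 20 of 22 lay above 0 (median 0.70), with 7 enriched and 1 depleted. Pcdhgc5 was enriched in both, at 82.5, 93.1 and 111 CPM against 54.3, 74.2 and 67.4 in WT (log2 fold change 0.49 ± 0.14 (SE), FDR = 0.0235) and 90.9 and 82.9 against 47.2 and 45 in cKO (log2 fold change 0.89 ± 0.11 (SE), FDR = 0.000165). Pcdhgc3, the neighbouring C-type gene, was depleted in both, at 9.37, 14.6 and 13.3 CPM against 26, 32.7 and 31.8 in WT (log2 fold change -1.34 ± 0.17 (SE), FDR = 7.00e-05) and 10.3 and 9.76 against 22 and 19 in cKO (log2 fold change -1.06 ± 0.17 (SE), FDR = 0.000944). These 2 C-type genes thus stood on opposite sides in both genotypes, without overlap between fractions. The remaining C-type gene of the cluster, Pcdhgc4, was depleted in WT (log2 fold change -1.2 ± 0.37 (SE), FDR = 0.0317) and had -1.27 ± 0.57 (SE) in cKO (FDR = 0.123).

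The other Pcdhg calls were of rarer genes. In WT, Pcdhgb2 stood at 5.77, 7.37 and 10.9 CPM against 3.76, 3.71 and 4.05 (log2 fold change 0.99 ± 0.23 (SE), FDR = 0.00682), Pcdhga2 at 8.61, 7.69 and 8.98 against 6.0, 4.99 and 4.52 (log2 fold change 0.64 ± 0.19 (SE), FDR = 0.0265) and Pcdhga10 at 9.21, 9.28 and 12.9 against 6.11, 8.11 and 4.68 (log2 fold change 0.67 ± 0.22 (SE), FDR = 0.0421). None of the 3 overlapped between fractions, which restates the called values. In cKO, Pcdhga3 stood at 19.3 and 15.7 CPM against 9.49 and 8.76 (log2 fold change 0.91 ± 0.19 (SE), FDR = 0.00404) and Pcdhgb5 at 4.32 and 8.07 against 2.15 and 2.06 (log2 fold change 1.53 ± 0.35 (SE), FDR = 0.00713), and replicate 2 of the IP was the higher for Pcdhgb5 and the lower for Pcdhga3. Pcdhga5, Pcdhga10, Pcdhgb1 and Pcdhgb4 were enriched in cKO too, with log2 fold changes of 0.69 to 1.23 and FDR of 0.0207 to 0.0456.

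WT and cKO IP comparisons share no library, so each can be read against the other. Of 81 members tested in both, 66 had the same sign, 81.5% beside 82.5% of all genes, with Pearson's r of 0.781 and Spearman's rho of 0.613 across members, which are genes and not independent replicates. Both genotypes enriched Pcdh19, Pcdh8, Pcdhb9, Pcdhga10 and Pcdhgc5, 71.4% of the WT list and 35.7% of the cKO list. Both depleted Cdh19, Cdh20, Cdh6, Pcdh11x, Pcdh15, Pcdh18 and Pcdhgc3, 77.8% of the WT list and all of the cKO list.

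Markers of glia and interneurons were depleted from the IP as well. In WT this held for 5 of 5 astrocyte, 5 of 7 oligodendrocyte and precursor, 5 of 5 microglia and 6 of 7 interneuron genes. The oligodendrocyte and precursor genes summed to 172 to 207 CPM in the WT IP against 346 to 416 in the input, microglia genes to 2.78 to 4.68 against 21.1 to 34.4, and interneuron genes to 167 to 194 against 439 to 503. In cKO the astrocyte genes summed to 46.3 to 59.8 CPM against 297 to 333, oligodendrocyte and precursor genes to 186 to 218 against 334 to 369 and microglia genes to 3.42 to 3.53 against 13.8 to 19.7, with 5 of 5, 5 of 7 and 5 of 5 depleted, while the precursor gene Cspg4 was enriched (log2 fold change 0.90 ± 0.29 (SE), FDR = 0.0384). Interneuron genes summed to 114 to 130.0 against 373 to 377 CPM in cKO, with 5 of 7 depleted. CA pyramidal genes did not follow, with 306 to 453 CPM in the WT IP against 303 to 321 in the input, estimates above 0 for 5 of 6 in WT and 4 of 6 in cKO, and Spink8 depleted in WT. Mossy genes lay below 0 for 4 of 4 tested in both genotypes, with Calcrl depleted in WT (log2 fold change -1.34 ± 0.27 (SE), FDR = 0.00227). No marker of these 6 lists was at 0 throughout an IP group, and their part in the depletion of members was not tested.

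**Figure D3:**
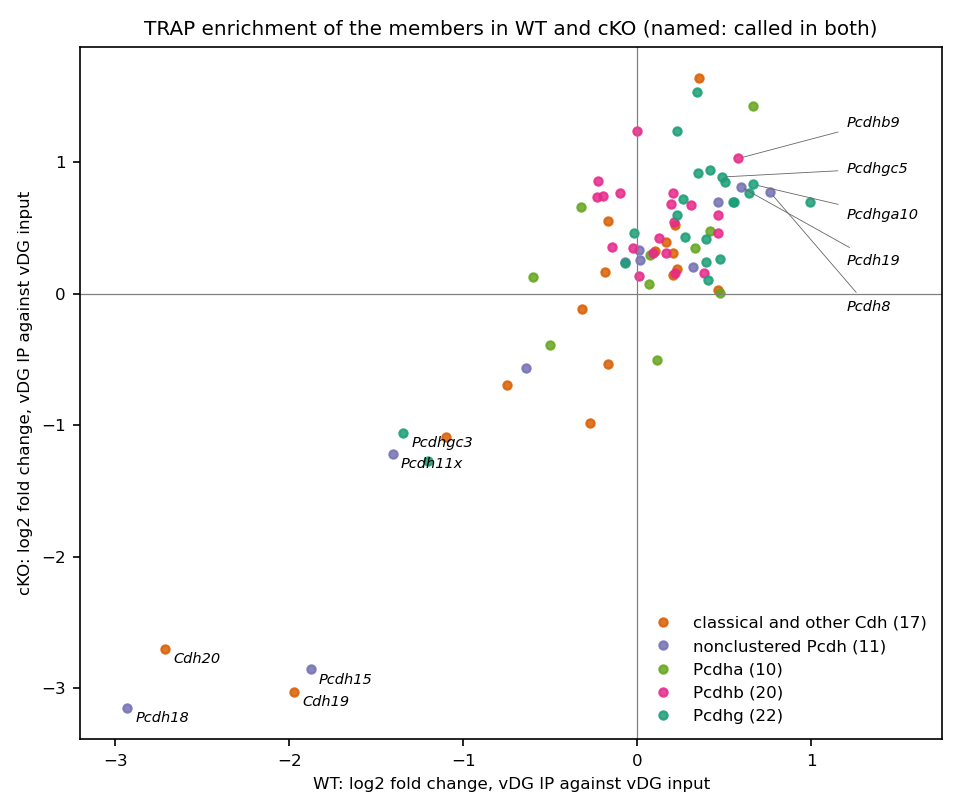
Log2 fold change of vDG IP against vDG input in WT (x axis) and in cKO (y axis), 1 point for each of 80 members tested in both, coloured by class, with the members called in both genotypes named. Cdh6 is left out because it was at 0 in the cKO IP. Named depleted members such as Cdh20 and Pcdh18 lie at the lower left and named enriched ones such as Pcdh19 and Pcdhgc5 at the upper right.

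The second comparison set vDG against dDG in the inputs of each genotype, which asks how the families differ along the long axis of the dentate gyrus. In WT, 9 of 82 members were higher in vDG at an FDR under 0.05 and 6 lower, against 9.26% and 6.09% of all genes. In cKO, 2 of 81 were higher and 16 lower, against 8.56% and 8.47%. The WT split of estimates was even, 41 above and 41 below 0, with a median log2 fold change of 0.0061. In cKO, 61 of 81 lay below 0, 75.3% beside 49.1% of all genes, with a median of -0.30. Scaling by library size alone gave 4 higher and 13 lower in cKO. Fewer WT members were called without vDG input replicate 2 or 3, namely 8 and 9, and 7 cKO members without dDG input replicate 2. Calls kept under every alternative were 6 of 15 in WT (Cdh10, Cdh11, Cdh13, Pcdh17, Pcdh19 and Pcdh8) and 5 of 18 in cKO (Cdh13, Cdh8, Pcdh17, Pcdh7 and Pcdhb16). The vDG inputs also enter the IP comparisons and the genotype comparison of vDG inputs, so these estimates are not independent of one another.

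Type I cadherins lay above 0 in vDG in WT, 3 of 3 with a median of 0.49. Cdh2 was at 75.2, 109 and 89.6 CPM in the WT vDG input and 62.9, 65.9 and 68.2 in the dDG input (log2 fold change 0.49 ± 0.13 (SE), FDR = 0.016), with replicate 2 of vDG the highest and no overlap. Cdh4 was also higher, and its groups overlapped (log2 fold change 0.79 ± 0.26 (SE), FDR = 0.0489). In cKO, Cdh2 had 0.12 ± 0.13 (SE, FDR = 0.602) and Cdh4 0.79 ± 0.28 (SE, FDR = 0.0568), and neither passed.

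Type II cadherins went both ways. Cdh10 was higher in WT vDG, at the values given above and with no overlap (log2 fold change 1.2503 ± 0.22 (SE), FDR = 0.000611), and in cKO its estimate of 0.49 ± 0.20 (SE) did not pass (FDR = 0.0998). It passed with a replicate block (FDR = 0.0352), with the block and the length trend removed (FDR = 0.00858), without a count filter (FDR = 0.0401) and without cKO vDG input replicate 2 (FDR = 0.000784). The fold change was 0.79 without that library and 0.11 without replicate 1 (FDR = 0.822). Cdh11 was higher in WT vDG at 74.4, 97.2 and 76.5 CPM against 52.1, 51.8 and 51 in dDG (log2 fold change 0.69 ± 0.12 (SE), FDR = 0.000784), where the dDG libraries lay within 2 CPM of one another. In cKO, Cdh11 stood at 61.8 and 61.2 CPM in vDG and 51.5 and 68.6 in dDG (log2 fold change 0.023 ± 0.13 (SE), FDR = 0.933). Cdh8 was lower in vDG in both genotypes, at 48.4, 57.1 and 45.9 against 72.9, 67.5 and 68.4 CPM in WT (log2 fold change -0.45 ± 0.12 (SE), FDR = 0.0153) and 40.4 and 41.1 against 71.6 and 82.6 CPM in cKO (log2 fold change -0.93 ± 0.12 (SE), FDR = 1.64e-05), without overlap. Cdh18 was lower in cKO vDG (log2 fold change -1.29 ± 0.33 (SE), FDR = 0.00861), and its WT value was -0.51 ± 0.26 (SE, FDR = 0.216). Cdh6 was not called in either genotype, with 0.84 ± 0.39 (SE) in WT (FDR = 0.171) and -0.093 ± 0.41 (SE) in cKO (FDR = 0.906).

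Cdh13 was the member with the lowest FDR in this comparison in both genotypes. It stood at 36.5, 51.2 and 46.7 CPM in WT vDG and 16.8, 20.1 and 14.4 in WT dDG (log2 fold change 1.41 ± 0.16 (SE), FDR = 7.91e-06), and at 42 and 34.2 and 12.7 and 14.6 CPM in cKO (log2 fold change 1.47 ± 0.15 (SE), FDR = 7.82e-07). Every vDG library was higher than every dDG library by more than the spread within either group. Cdh13 was the member higher in vDG in both genotypes.

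No delta-1 gene was called in WT, where 4 of 4 lay above 0. In cKO, Pcdh11x was higher in vDG at 8.29 and 7.33 CPM against 4.69 and 4.84 (log2 fold change 0.70 ± 0.21 (SE), FDR = 0.0255) and Pcdh7 lower at 27.2 and 24.7 against 38 and 49 CPM (log2 fold change -0.76 ± 0.14 (SE), FDR = 0.000769). Neither overlapped, and the WT values of Pcdh7 were 0.13 ± 0.17 (SE, FDR = 0.664).

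Delta-2 genes gave 2 calls in each direction in WT. Pcdh19 was higher in vDG at 179, 215 and 168 CPM against 141, 128 and 117 (log2 fold change 0.56 ± 0.12 (SE), FDR = 0.00373), and Pcdh10, which takes part in synapse elimination, at 32.9, 46.7 and 39.3 against 26.4, 29.8 and 25 CPM (log2 fold change 0.57 ± 0.14 (SE), FDR = 0.0109). Replicate 2 of the WT vDG input was the highest for both. Pcdh17 was lower in vDG at 108, 130.0 and 107 against 205, 154 and 175 CPM (log2 fold change -0.62 ± 0.12 (SE), FDR = 0.00229) and Pcdh8 at 14.5, 20.6 and 18.3 against 32.5, 31.9 and 26.9 CPM (log2 fold change -0.76 ± 0.15 (SE), FDR = 0.0017). In cKO, Pcdh17 was lower again at 101 and 90.4 against 160.3 and 169 CPM (log2 fold change -0.79 ± 0.11 (SE), FDR = 4.15e-05), as was Pcdh8 (log2 fold change -0.51 ± 0.16 (SE), FDR = 0.0345). For Pcdh19 the cKO estimate was 0.30 ± 0.11 (SE, FDR = 0.070) and for Pcdh10 0.079 ± 0.14 (SE, FDR = 0.757).

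Among clustered genes, Pcdhac2 was higher in WT vDG at 18.2, 22.6 and 21 CPM against 16.5, 12.7 and 15.4 (log2 fold change 0.48 ± 0.15 (SE), FDR = 0.0349), and Pcdhga5 was higher with overlapping groups (log2 fold change 0.59 ± 0.19 (SE), FDR = 0.0456). Pcdhb18, Pcdhb3 and Pcdhb9 were lower in WT vDG. Pcdhb18 stood at 6.0, 8.08 and 7.21 CPM against 9.29, 11 and 12.3 (log2 fold change -0.60 ± 0.18 (SE), FDR = 0.0291), Pcdhb3 at 2.76, 3.37 and 4.09 against 5.47, 4.82 and 6.64 (log2 fold change -0.72 ± 0.22 (SE), FDR = 0.0374) and Pcdhb9 at 6.03, 4.78 and 5.69 against 10.5, 7.5 and 7.56 (log2 fold change -0.62 ± 0.20 (SE), FDR = 0.0414). The groups of these 3 did not overlap, which restates the called values. Over the cluster 15 of 20 Pcdhb estimates lay below 0 in WT, with a median of -0.23.

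In cKO all 20 Pcdhb estimates lay below 0 in vDG, with a median of -0.71, and 6 were called, namely Pcdhb16, Pcdhb5, Pcdhb7, Pcdhb18, Pcdhb9 and Pcdhb17. Pcdhb16 stood at 15.3 and 13.9 CPM in vDG and 23.9 and 27.1 in dDG (log2 fold change -0.82 ± 0.15 (SE), FDR = 0.000674). Pcdhb5 stood at 1.5 and 1.47 against 3.43 and 4.1 CPM (log2 fold change -1.35 ± 0.31 (SE), FDR = 0.00483) and Pcdhb7 at 5.72 and 5.82 against 9.57 and 10.6 CPM (log2 fold change -0.81 ± 0.19 (SE), FDR = 0.00592). In each of these 3 genes the vDG pair lay closer together than the dDG pair, and the pairs did not overlap. Pcdhb18, Pcdhb9 and Pcdhb17 had log2 fold changes of -0.87 to -0.64. Of 22 Pcdhg genes 21 lay below 0, with a median of -0.43, and Pcdhgc3, Pcdhga3, Pcdhgc5, Pcdhgb1 and Pcdhgb5 were called at -0.89 to -0.43 (FDR of 0.0146 to 0.0391).

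The WT and cKO region comparisons also share no library. The same sign was seen for 57 of 81 members, 70.4% beside 64.3% of all genes, with Pearson's r of 0.631 and Spearman's rho of 0.604 across members. Cdh8, Pcdh17, Pcdh8, Pcdhb18 and Pcdhb9 were lower in vDG in both, 83.3% of the WT list and 31.3% of the cKO list. Markers of several cell types differed between the dissected regions as well. The 5 mossy genes summed to 76.5 to 98.2 CPM in WT vDG and 8.45 to 12.3 in dDG, the CA pyramidal genes to 303 to 321 and 113 to 156, and the granule genes to 1170.4 to 1354 and 1771 to 1789 CPM. In WT vDG 2 of 4 tested mossy and 4 of 6 CA genes were called higher, and 4 of 7 granule genes and the CA gene Fibcd1 lower. In cKO the same lists summed to 74.6 to 89.4 and 9.89 to 10.1, 219.7 to 233 and 136 to 209, and 1209.8 to 1225 and 1772 to 1777 CPM. Interneuron genes summed to 439 to 503 CPM in WT vDG against 286 to 351 in dDG and to 373 to 377 against 307 to 332 in cKO, with 3 called higher in vDG in each genotype. The 5 choroid plexus genes summed to 22.8 to 28.3 CPM in WT vDG and 31.8 to 149 in WT dDG, and in cKO to 22.1 to 35.7 and 17.9 to 22.9, with Ttr, the choroid plexus transthyretin, lower in vDG in WT (log2 fold change -4.12 ± 0.69 (SE), FDR = 0.000482) and higher in cKO (log2 fold change 1.46 ± 0.36 (SE), FDR = 0.0077). No gene of these lists was at 0 throughout an input group, and their part in the members' regional differences was not tested.

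**Figure D4:**
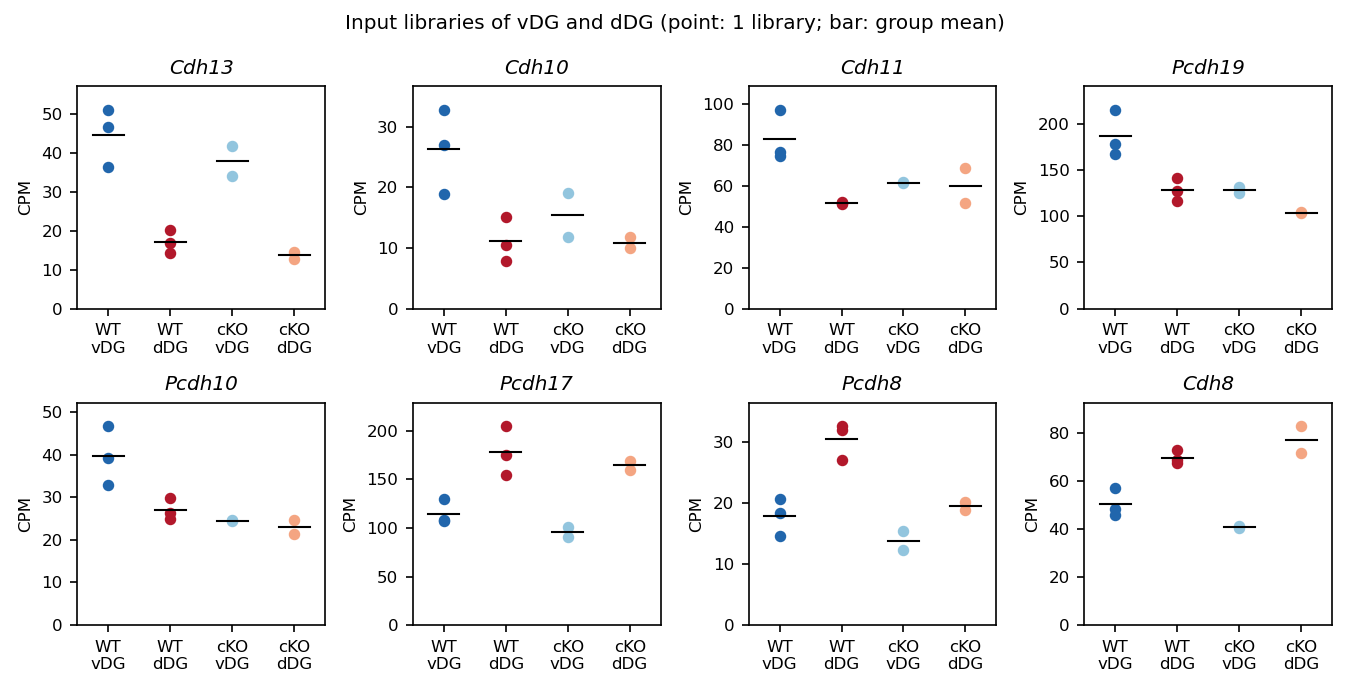
Levels in CPM (y axes, linear from 0, scaled for each gene) of 8 members in the vDG and dDG inputs of WT and cKO (x axis), with 1 point per library and a bar at each group mean. Cdh13 is higher in vDG in both genotypes, Pcdh17, Pcdh8 and Cdh8 are lower in both, and for Cdh10, Cdh11, Pcdh19 and Pcdh10 the WT groups are separate.

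The third comparison set cKO against WT in each kind of library, which asks what accompanies the loss of the receptor. Between the vDG IP groups 0 of 81 members were higher and 2 lower at an FDR under 0.1, against 0.0699% and 0.35% of all genes, and 15 members had an unadjusted p under 0.05, 18.5% beside 11.7% of all genes. At an FDR under 0.05 edgeR called 0, with 3 called lower by DESeq2 at 0.1. Leaving out replicate 1 of the WT IP gave 3 calls, replicate 3 gave 1, and replicate 2 or either cKO IP library gave 0. Estimates below 0 were found for 64 of 81 members, 79.0% beside 50.2% of all genes, with a median of -0.24 beside -0.0019.

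Besides Cdh10 and Cdh6 no member passed in the IP in the main edgeR fit. Of the 3 members that DESeq2 called only 1, Cdh10, was a main call, so others passed there. Without a count filter 4 members were called and with all 15 libraries 5, Cdh10 and Cdh6 among them. The main estimates are given by role with no test between roles. Type II cadherins had 11 of 13 below 0 with a median of -0.45, and type I had 3 of 3 with -0.28. Pcdhg genes had 20 of 22 below 0 with a median of -0.37, whereas Pcdhb genes were nearly even, 11 of 20 with -0.026. Pcdh10 came next after Cdh6 by p, at 25.6, 23.7 and 30.2 CPM in WT and 17.1 and 16.6 in cKO (log2 fold change -0.62 ± 0.17 (SE), FDR = 0.203). Its groups did not overlap.

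Between the vDG inputs 0 of 82 members were higher and 9 lower at an FDR under 0.05, against 0.108% and 2.33% of all genes, and 39 members had an unadjusted p under 0.05, 47.6% beside 14.8% of all genes. Estimates lay below 0 for 78 of 82 members, 95.1% beside 48.6% of all genes, with a median of -0.51 beside 0.011. The count rested on single libraries. It was 15 without replicate 1 of the WT input, 3 without replicate 3 and 0 without replicate 2 or without either cKO input, and the members' median stayed between -0.58 and -0.42 in those 5 fits. Replicate 2 of the WT vDG input had the highest members' sum of its group, as stated above.

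The 13 type II cadherins all lay below 0 in the cKO vDG input, with a median of -0.61. Cdh20 was lower at 3.42 and 3.64 CPM against 6.33, 9.42 and 5.89 in WT (log2 fold change -1.04 ± 0.24 (SE), FDR = 0.0211), and Cdh10 was lower with overlapping groups, as given above. The 3 type I genes had a median of -0.50 and none passed, Cdh2 standing at 71.7 and 56.3 CPM against 75.2, 109 and 89.6 (log2 fold change -0.53 ± 0.15 (SE), FDR = 0.0644).

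All 9 delta protocadherins lay below 0 and 4 were called. Pcdh1 was lower at 129.6 and 122 CPM against 152, 259 and 170.1 in WT (log2 fold change -0.64 ± 0.16 (SE), FDR = 0.038), where replicate 2 of WT stood far above the other two. Pcdh9 was lower at 100.3 and 94.1 against 118, 152 and 138 CPM (log2 fold change -0.50 ± 0.13 (SE), FDR = 0.0448). Pcdh10 was lower at 24.6 and 24.4 against 32.9, 46.7 and 39.3 CPM (log2 fold change -0.70 ± 0.16 (SE), FDR = 0.0158) and Pcdh19 at 132 and 126 against 179, 215 and 168 CPM (log2 fold change -0.56 ± 0.13 (SE), FDR = 0.0256). In all 4 genes both cKO libraries lay below every WT library, which restates the values that were called.

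In the Pcdhg cluster 21 of 22 estimates lay below 0, with a median of -0.58, and 3 were called. Pcdhga5 had the lowest FDR of all members here, at 4.61 and 5.85 CPM in cKO against 7.67, 12.3 and 12 in WT (log2 fold change -1.04 ± 0.22 (SE), FDR = 0.0132). Pcdhga3 stood at 9.49 and 8.76 against 13.4, 20.4 and 13.6 CPM (log2 fold change -0.81 ± 0.20 (SE), FDR = 0.0271) and Pcdhga8 at 3.23 and 2.95 against 5.77, 5.5 and 5.57 CPM (log2 fold change -0.88 ± 0.24 (SE), FDR = 0.0459). No groups overlapped among the 3, which restates the called values. The Pcdhb genes had 18 of 20 estimates below 0 with a median of -0.46, and the Pcdha genes 10 of 11 with -0.26, and 0 of either were called.

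Some markers of other cells also differed between the vDG inputs of the genotypes. The 5 astrocyte genes summed to 405 to 505 CPM in WT and 297 to 333 in cKO with 5 of 5 below 0, of which Aqp4, Gja1 and Slc1a3 were called lower. CA pyramidal genes summed to 303 to 321 and 219.7 to 233 CPM with 4 of 6 below 0 and Dkk3 called lower. Interneuron genes summed to 439 to 503 and 373 to 377 CPM with 5 of 7 below 0, and microglia genes to 21.1 to 34.4 and 13.8 to 19.7 with 5 of 5 below 0, and 0 of either were called. Cspg4 was called lower and Ttr higher in cKO. The granule genes summed to 1170.4 to 1354 and 1209.8 to 1225 CPM, with 6 of 7 below 0, a median of -0.16 and Dsp called lower. No gene of these lists was at 0 throughout, and their part in the lower members was not tested.

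Between the dDG inputs edgeR called 0 of 81 members in either direction, against 0.0065% of all genes higher and 0.026% lower. Of the 81, 9 had an unadjusted p under 0.05, 11.1% beside 12.2% of all genes and so near the background. The lowest FDR was 0.157, and DESeq2 called 1, Pcdh8. Choroid plexus genes summed to 31.8 to 149 CPM in WT and 17.9 to 22.9 in cKO. Astrocyte genes summed to 441 to 464 and 316 to 421 CPM with 3 of 5 below 0. Microglia genes summed to 24.0 to 43.65 and 20.8 to 21.4 CPM with 5 of 5 below 0. Endothelial and mural genes had 6 of 6 below 0, with overlapping sums. Granule genes had 4 of 7 above 0 and meningeal genes 4 of 5. In these lists 0 genes were called, and their part was not tested. Estimates lay below 0 for 58 of 81 members with a median of -0.15 beside -0.022. Pcdh8 had the lowest p, at 32.5, 31.9 and 26.9 CPM in WT and 18.9 and 20.2 in cKO (log2 fold change -0.64 ± 0.14 (SE), FDR = 0.157), and its groups did not overlap. The 13 type II cadherins were even, with 7 below 0 and a median of -0.034.

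**Figure D5:**
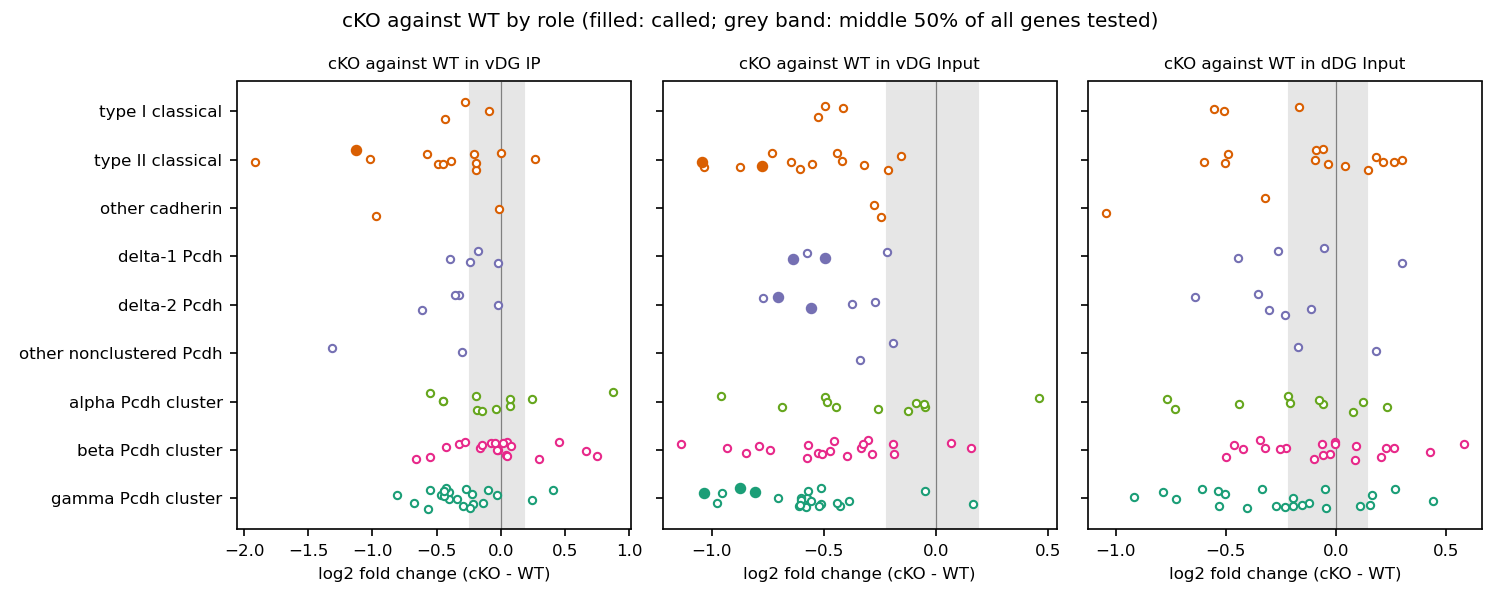
Log2 fold change of cKO against WT (x axes, which differ in range) for the members by role (y axis), in the IP of vDG and in the inputs of vDG and dDG. Each point is 1 member, filled where called, and the grey band holds the middle 50% of all genes tested. Cdh6 is left out of the vDG IP panel because it was at 0 in cKO. In the vDG input 78 of 82 members lie below 0 and 9 are filled, and in the dDG input 0 are filled.

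The difference between regions in the genotype effect was tested in one fit of the 10 inputs. With edgeR 0 of 82 members passed in the positive and 0 in the negative direction, against 0% and 0% of all genes, while 15 had an unadjusted p under 0.05, 18.3% beside 12.3% of all genes. The lowest FDR was 0.182 and DESeq2 called 2. The estimates were negative for 67 of 82 members with a median of -0.34 beside -0.0078. Pcdh7 had the lowest p (interaction -0.89 ± 0.26 (SE), FDR = 0.182), followed by Cdh11 at -0.67 ± 0.20 (SE). Cdh10 had -0.76 ± 0.35 (SE, FDR = 0.393). The DESeq2 calls were Pcdh7 and Cdh11, and edgeR without a count filter called these and Pcdhga5, all negative, so the main edgeR test and these alternatives part on whether the cKO effect differed by region for these 3.

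The difference between IP and input in the genotype effect was tested in the 10 vDG libraries. Again 0 of 82 members passed in either direction with edgeR, against 0% and 0% of all genes, and DESeq2 called 0. An unadjusted p under 0.05 was found for 5, 6.1% of the members beside 3.09% of all genes. Estimates were positive for 63 of 82 members with a median of 0.24 beside 0.017. Cdh10 had -0.34 ± 0.33 (SE, FDR = 1.0).

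The partners of these proteins were read from 4 lists. Of 10 tested catenins and catenin partners, Ctnnb1, the beta-catenin that links classical cadherins to actin, was lower in the cKO vDG input (log2 fold change -0.51 ± 0.13 (SE), FDR = 0.0394, background 2.33% of all genes) and did not pass in the IP (log2 fold change -0.57 ± 0.14 (SE), FDR = 0.123). The other 9 did not pass in either. Ctnnd2, or delta-catenin, was higher in WT vDG than dDG (log2 fold change 0.55 ± 0.11 (SE), FDR = 0.00252), and Cttnbp2 was lower in vDG in WT (log2 fold change -0.42 ± 0.11 (SE), FDR = 0.0171) and cKO (log2 fold change -0.90 ± 0.13 (SE), FDR = 4.20e-05). The background between regions was 9.26% higher and 6.09% lower in WT, and 8.47% lower in cKO. Ctnna2 was the only one of the 10 enriched in an IP, that of cKO (log2 fold change 0.45 ± 0.13 (SE), FDR = 0.0194, background 11.4%).

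Of 16 tested genes among other cadherin superfamily members, 6 were enriched in the WT IP (Cdhr1, Celsr2, Clstn1, Clstn3, Dsp and Ret) and 6 in the cKO IP (Celsr2, Clstn1, Clstn2, Clstn3, Dsp and Fat4), with 0 depleted (background 7.72% and 11.4% enriched). In WT 4 were higher in vDG and 3 lower, and in cKO 1 and 3 (background 9.26% and 6.09%, and 8.56% and 8.47%). In the cKO vDG input 3 of the 16 were lower (background 2.33% of all genes). These were Clstn1 and Clstn2, which encode synaptic calsyntenins, and Dsp, the desmoplakin that is also in the granule cell marker list. Their log2 fold changes were -0.63, -0.56 and -0.94. None of the 16 was called between genotypes in the IP or the dDG input.

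Among factors known to act at clustered protocadherin promoters or on their chromatin, 12 were tested. In the WT IP 4 were enriched and in the cKO IP 7 (background 7.72% and 11.4%), in both cases including Smchd1, a chromatin silencer, and Ctcf, which loops enhancers to these promoters. Between vDG and dDG 1 was lower in WT and 9 in cKO (background 6.09% and 8.47%), with all 12 estimates below 0 in cKO. Smchd1 was lower in the cKO IP (log2 fold change -0.80 ± 0.16 (SE), FDR = 0.0831), and in the cKO vDG input 5 were lower (background 2.33%), Dnmt1, Nipbl, Smc1a, Smc3 and Smchd1, at log2 fold changes of -1.05 to -0.49. In the dDG input 0 were called.

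Of 11 proteases and effectors that act on or below protocadherins, 6 were enriched in each IP (background 7.72% in WT and 11.4% in cKO), and they were the same genes, Cyfip1, Cyfip2, Nckap1, Ptk2, Ptk2b and Wasf1, which encode WAVE complex subunits and focal adhesion kinases. Between vDG and dDG 1 of the 11 was lower in WT, Ptk2 (background 6.09%), and 4 were lower in cKO (background 8.47%). The 4 were Adam10, the sheddase of several cadherins, Cyfip1, Nckap1 and Ptk2. Cyfip1 was the gene of the 11 that was lower in the cKO vDG input (log2 fold change -0.70 ± 0.14 (SE), FDR = 0.00853, background 2.33% of all genes). In the IP and the dDG input 0 were called between genotypes.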

How the data were processed

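The deposited values are raw read counts per gene, 1 file for each of 15 libraries. By the study's methods and the submitters' processing notes, the authors amplified RNA with a kit that does not mark strand, trimmed reads, aligned them to mm10 with STAR 2.4.2a, removed duplicates with SAMtools 0.1.19-444 and counted exonic reads with HTSeq (union mode, so ambiguous reads were dropped). The rows that name no gene were left out. They held 11.3 to 18.7% (no feature), 2.50 to 8.60% (ambiguous) and 9.28 to 13.4% (not unique) of the reads in each library. Ambiguous reads made up 2.50 to 2.75% in the IP libraries and 5.62 to 8.60% in the inputs. Reads with no feature made up 11.3 to 12.9% and 15.2 to 18.7%. The part of this split in the IP comparisons was not tested. Tables of the authors' own fold changes and p-values were not used here.

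Genes were filtered with filterByExpr, scaled by TMM and tested with edgeR 4.0.16 (quasi-likelihood, two-sided) in R 4.3.3, only the groups compared entering each fit, with Benjamini-Hochberg FDR over all genes tested. Calls required an FDR under 0.05, or under 0.1 for cKO against WT in the vDG IP. IP enrichment also required a level at least 25% above the input and depletion a fold under 0.5. The standard error is the log2 fold change divided by the square root of F. Exonic lengths and coordinates came from GENCODE M21 and promoters from RefSeq. No 2 libraries of the same group agreed within sampling noise (chi-square per gene 12.6 to 69.1), and pairs from different groups were not compared. The steps were tested on simulated data.

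Every called member is named, the 6 with the lowest FDR in each direction with all libraries. The members and lists were chosen with earlier results of these data known. Alternatives were DESeq2 1.42.0, relative log expression (RLE) or library-size scaling, no filter, all 15 libraries in one fit, a length trend, a replicate block, other thresholds and each library left out.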

Additional observations from a re-analysis of the deposited data

How the results depend on the processing

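Counts of called members moved by over 1.5 times under these alternatives. Against 16 in the WT IP comparison, leaving out a library gave 10 to 15, and against 21 in cKO 10 to 28. Against 15 between WT vDG and dDG the range was 8 to 12, and against 18 in cKO 7 to 21, with 9 when all 15 libraries were fitted together. Between the vDG IP groups, against 2, the count was 4 without a count filter, 5 with all 15 libraries, 1 with the replicate block, 0 at a threshold of 0.05 and 0 to 3 with a library left out. Between the vDG inputs, against 9, it was 16 with DESeq2, 5 with library-size scaling, 18 without a filter, 3 with all 15 libraries, 3 with the length trend removed and the replicate block, and 0 to 15 with a library left out. Between the dDG inputs, against 0, it was 1 with DESeq2, 2 without a filter, 1 with the replicate block, 3 with the length trend removed and the block, and 0 to 1 with a library left out. The region interaction, against 0, gave 2 with DESeq2 and 3 without a filter, and the fraction interaction, against 0, gave 1, Cdh6, without a filter. DESeq2 gave no adjusted p for 56 members in the vDG IP, 26 in the vDG and 40 in the dDG inputs, 61 in the region interaction and 2 between cKO vDG and dDG, and these are left out of its counts. The cause of these moves was not tested. The other 97 alternative counts stayed within 1.5 times.

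There were 10 fits in which a fold change of Cdh10 or Cdh6, not called, turned sign. With a library left out, Cdh10 ranged from -0.34 to 0.023 in the WT IP comparison, from -0.22 to 0.24 between dDG inputs and from -0.64 to 0.033 in the fraction interaction, and Cdh6 from -0.42 to 0.37 between cKO vDG and dDG and from -0.21 to 0.61 between dDG inputs. With the length trend removed and the block, Cdh6 came to 0.032 between cKO vDG and dDG and to -0.13 between dDG inputs, where the block alone gave -0.082.

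By the methods the inputs were taken from the supernatant used for the pull-down, so a vDG IP and an input may share a pool, but the sample records give pools of different size and no source says which ones match. To look for matches, the log CPM of each gene was taken as a deviation from its group mean, and these deviations were correlated between libraries. Those of same-numbered WT libraries correlated at 0.464, -0.165 and -0.329 between IP and input and at 0.384, -0.111 and 0.219 between regions. Those of cKO libraries correlated at 0.441 and 0.158. With 2 libraries per cKO group the crossed values, -0.441 and -0.158, mirror these by construction. Not every WT library correlated best in this way with its own number. Numbers are those of the sample titles, and the deposited file names number the cKO dDG inputs 2 and 3. The numbers were therefore not taken to pair the samples, and whether IP and input were paired in cKO cannot be told from these data. With the replicate block 17, 29, 18 and 25 members were called in the IP and region comparisons of WT and cKO, 1 between genotypes in the IP, 10 in the vDG and 1 in the dDG inputs, and 0 in both interactions. The block lost Pcdhga10 in the WT IP comparison (FDR = 0.0513) and Pcdh9 and Pcdhga8 between vDG inputs (FDR = 0.0954 and 0.0729), and it lost no call in the cKO IP or either region comparison. It also called members given above as not passed, among them Cdh13 and Pcdhgc4 in the cKO IP (FDR = 0.0184 and 0.0389), Cdh4 and Pcdh19 between cKO regions (FDR = 0.0346 and 0.0164) and Pcdh8 between dDG inputs (FDR = 0.0427). With 2 cKO libraries per group, smaller differences between genotypes could not be told from the spread between pools, and for members of a few counts, such as Cdh6, depth limits the fold that can be given.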
